A study of Mus musculus with 8 samples.

Results

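Divergent transcripts are RNAs that start close to the 5′ end of a protein-coding gene and run away from it on the opposite strand. In the liver of ad libitum fed and 24-h fasted mice, 1395 transcripts of the NONCODE catalogue, of 83057 in the deposited table, met that description at 875 coding gene promoters. A transcript was taken when its 5′ end lay within 1 kb of the 5′ end of a GENCODE protein-coding gene (mouse release 21, mm10) on the other strand and pointed away from it. Its span had to overlap no protein-coding gene, it had to have at least 50 reads over the 8 libraries, and it could not be mitochondrial. The position alone was met by 2464 transcripts. At the read threshold, 11 candidates had exactly 50 reads and were taken, and 2 had 49 and were not.

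Each library is labelled as a biological replicate of liver from male C57BL/6 mice of the Jackson Laboratory, about 20 weeks old. The mice shared cages, were put into the groups at random with age and weight matched, and were killed at 10 am. The ad libitum group (4 libraries) had free access to food and the other group (4 libraries) had been fasted for 24 h; the labels name no mutation, transgene or drug in either, and do not say whether a replicate is 1 mouse. Stranded total RNA libraries were made from 1 µg of DNase-treated RNA and the comparison asks which, mainly non-coding, transcripts differ in liver after a fast.

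Many mammalian promoters, above all those in CpG islands, recruit RNA polymerase II in both directions from a shared nucleosome-free region. The coding direction gives an mRNA, while the upstream direction gives RNAs that are often ended early at poly(A) signals and removed by the nuclear exosome. Some of these upstream RNAs are spliced and stable and carry their own names, for example the snoRNA hosts Gas5 and Snhg1. In liver, a fast raises the breakdown of fat and amino acids and the production of glucose and ketone bodies, and lowers the synthesis of fat and sterols.

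Reads per library, without the mitochondrial 16S rRNA, came to between 51107745 and 68691606 in the ad libitum group and between 90243439 and 119486211 in the fasted group. The median divergent transcript had 16 to 22 reads per ad libitum library and 30 to 48 per fasted library. The 4 fasted libraries differed among themselves. Scores on principal component 1, with 47.6% of the variance, ran from -75.3 to -66.6 in the ad libitum group and from 90.5 to 103 in fasted replicates 1 to 3, and the score of fasted replicate 4 was -4.37. Among transcript counts of 21 to 200, odd numbers made up 9.21 to 10.3% in ad libitum replicates and 10.8% in fasted replicate 4, against 16.5 to 17.8% in fasted replicates 1 to 3. Results are therefore given over all 8 libraries and again for fasted replicate 4 alone against the 4 ad libitum libraries. Of the hepatocyte markers, 6 of 14 had catalogue transcripts over their exons, with a summed level of 1900 to 2710 CPM (reads scaled to the library total) in ad libitum and 3270 to 4260 in fasted libraries. Transcripts over 1 of 7 Kupffer cell markers summed to 0.0719 to 0.513 and 0.173 to 0.335 CPM, those over 3 of 5 endothelial markers to 1.3 to 1.85 and 1.41 to 3.74, and those over 5 of 5 stellate cell markers to 21.2 to 38.4 and 28.0 to 76.0. Transcripts over 3 of 4 cholangiocyte markers summed to 0.719 to 1.06 and 0.767 to 1.06 CPM, those over 2 of 5 lymphocyte markers to 5.93 to 9.29 and 5.35 to 8.25, and none lay over 3 erythroid markers. The part of cell composition in the results was not tested, and in whole liver fewer cells of a type cannot be told apart from less RNA per cell.

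The stretches below show the DNA shared by a coding gene and its divergent transcript at 6 promoters, 3 where the divergent RNA rose after the fast (Txnip, Mfsd2a, Arhgdia) and 3 where it fell (Asxl2, Polr3k, Hist1h2bm). They are RefSeq promoter sequences on GRCm38.p6, the build also called mm10, read 5′ to 3′ on the strand of the coding gene and ended just before its 5′ end. Capitals mark the bases between the 5′ ends of both transcripts, so the coding gene begins just after the last capital and the divergent RNA runs leftwards through the lower-case part. They lie at chr3:96557707-96557956 on the plus strand (Txnip), chr4:122961189-122961438 on the minus strand (Mfsd2a), chr11:120581625-120581874 on the minus strand (Arhgdia), chr12:3426607-3426856 on the plus strand (Asxl2), chr2:181864110-181864336 on the plus strand (Polr3k) and chr13:21721794-21722043 on the plus strand (Hist1h2bm).
Txnip: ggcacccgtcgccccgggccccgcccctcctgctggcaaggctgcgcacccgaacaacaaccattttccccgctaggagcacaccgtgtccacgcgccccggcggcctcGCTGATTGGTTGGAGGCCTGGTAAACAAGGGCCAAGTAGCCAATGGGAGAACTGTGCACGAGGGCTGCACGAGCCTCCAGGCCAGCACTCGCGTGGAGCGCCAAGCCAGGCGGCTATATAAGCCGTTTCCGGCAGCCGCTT
Mfsd2a: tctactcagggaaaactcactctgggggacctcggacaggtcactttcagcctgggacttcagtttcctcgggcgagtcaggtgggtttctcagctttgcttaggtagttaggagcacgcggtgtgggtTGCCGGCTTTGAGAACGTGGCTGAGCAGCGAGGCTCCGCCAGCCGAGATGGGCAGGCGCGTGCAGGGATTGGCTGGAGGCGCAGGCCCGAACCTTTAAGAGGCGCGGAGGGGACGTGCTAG
Arhgdia: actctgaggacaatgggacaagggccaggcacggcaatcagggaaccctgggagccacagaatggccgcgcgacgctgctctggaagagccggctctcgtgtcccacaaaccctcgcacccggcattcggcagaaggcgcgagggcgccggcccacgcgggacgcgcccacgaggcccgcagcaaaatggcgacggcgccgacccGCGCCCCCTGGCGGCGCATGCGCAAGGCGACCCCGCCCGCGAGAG
Asxl2: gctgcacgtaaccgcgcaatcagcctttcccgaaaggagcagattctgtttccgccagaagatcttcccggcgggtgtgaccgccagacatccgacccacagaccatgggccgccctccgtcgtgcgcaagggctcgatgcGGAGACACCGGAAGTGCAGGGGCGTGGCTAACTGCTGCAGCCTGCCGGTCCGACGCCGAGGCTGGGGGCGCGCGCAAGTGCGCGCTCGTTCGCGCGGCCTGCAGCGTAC
Polr3k: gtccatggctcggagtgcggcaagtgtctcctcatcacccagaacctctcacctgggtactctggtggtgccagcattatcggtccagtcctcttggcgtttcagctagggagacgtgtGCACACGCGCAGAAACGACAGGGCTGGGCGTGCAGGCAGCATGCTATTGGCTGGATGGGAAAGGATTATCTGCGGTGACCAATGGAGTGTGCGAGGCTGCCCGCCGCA
Hist1h2bm: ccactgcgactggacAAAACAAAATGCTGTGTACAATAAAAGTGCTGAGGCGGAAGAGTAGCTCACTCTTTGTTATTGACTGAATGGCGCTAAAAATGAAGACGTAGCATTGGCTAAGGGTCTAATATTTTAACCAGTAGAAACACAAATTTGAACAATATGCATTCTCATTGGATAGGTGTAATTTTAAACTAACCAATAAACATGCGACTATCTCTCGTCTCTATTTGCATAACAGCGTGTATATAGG

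The shared stretch was 141 bases long at Txnip, 121 at Mfsd2a, 45 at Arhgdia, 109 at Asxl2, 108 at Polr3k and 235 at Hist1h2bm. Base composition of the stretches shown ran from 37.6% G+C at the histone promoter Hist1h2bm to 72.0% at Arhgdia. Motifs were searched on both strands, and the share of the 250-base windows before the start of 16936 coding genes that hold the motif is given for each. The CCAAT box (CCAAT, in 36.4% of windows) occurred in the capitals of Txnip, Mfsd2a, Polr3k and Hist1h2bm, with 3 copies in the last. CCGGAAGT, the core of an ETS family motif, occurred in the capitals of Asxl2 (4.01% of windows), and GCATGCGC, the core of the NRF1 motif, in those of Arhgdia (3.13%). In the capitals of Txnip, CACGAG (6.04% of windows) occurred in repeat on the same strand with 5 bases between, a pairing found in 1 of the 16936 windows, its own. It has the layout of a carbohydrate response element, the site of the glucose-sensing factors ChREBP and MondoA. Neither TATAAA (12.2% of windows) nor CACGTG (6.81%) occurred in any of the 6 stretches shown. Only exact strings were searched, so variant forms of a motif, such as other TATA boxes, were not looked for. The motifs were picked after the sequences were seen, CACGTG and TATAAA excepted, and a match describes letters, not binding.

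Within the limit of 1 kb set by the choice of members, the distance between both 5′ ends had a median of 162 bases and quartiles of 95 and 314 bases. It was at most 100 bases in 389 transcripts (27.9%), up to 250 in another 559 (40.1%), up to 500 in another 277 (19.9%) and up to 1000 in the other 170 (12.2%). Their coding genes had starts rich in CpG, a feature that the choice of members did not use. Over the first 200 bases of the transcript, the 873 coding genes with a value had a median G+C content of 65.5% and a CpG observed-to-expected ratio of 0.863, and 80.8% reached a ratio of 0.6. In the 20984 other coding genes these values were 58%, 0.58 and 48.6%. This difference is descriptive, since genes are not replicates. The other coding genes were not limited to those with reads in liver, while members needed at least 50 reads. The part of expression in the difference was not tested.

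**Figure D1:**
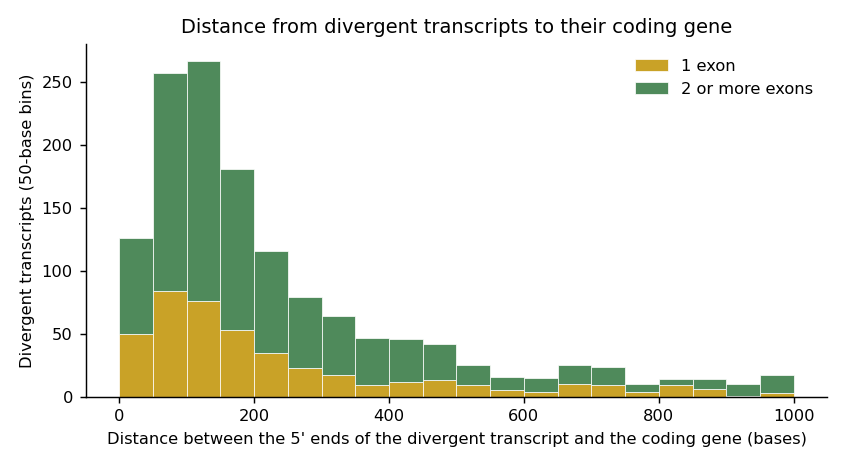
Number of divergent transcripts (y axis, stacked by exon count) by the distance in bases between their 5′ end and that of the coding gene (x axis, 50-base bins). Most lie within 250 bases, and the median is 162 bases.

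As RNAs, the divergent transcripts were somewhat shorter than catalogue transcripts in general, mostly spliced in the catalogue and low in level. They had a median length of 1180 bases, and 432 of them (31.0%) had a single exon. For the 47881 catalogue transcripts with at least 50 reads, these values were 1477 bases and 61.1%. The authors' CNCI score, where values above 0 mark likely coding sequence, was above 0 in 17 (1.22%), against 1.58% of all catalogue transcripts. GENCODE had a gene on the same strand for 807 of them, of a long non-coding class for 760 and a pseudogene for 44, and none for 588. A single divergent transcript was listed at 607 promoters and at least 2 at 268, with the most at Smad7, an inhibitor of TGF-β signalling, where 17 overlapping transcripts were listed. Of these, 11 were tested and 1 fell, with log2 changes from -1.89 to 0.57 and a median of -0.74. The median level was 0.218 RPKM (reads scaled to transcript length and library total; quartiles 0.114 and 0.493), against 0.35 for all catalogue transcripts with at least 50 reads.

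The highest RPKM values belonged to RNAs of other known kinds that happen to lie head to head with a coding gene. Beside Rps29, which encodes a ribosomal protein, lies Rn7s1, a copy of 7SL, the RNA of the signal recognition particle. It had 112000, 113000, 117000 and 123000 CPM in the ad libitum libraries and 82800, 60900, 103000 and 119000 in fasted replicates 1 to 4, which overlap. It did not pass over the 8 libraries (log2 change -0.35 ± 0.19) but did without fasted replicate 4 (log2 change -0.51). Beside Gtf3c6, a subunit of the RNA polymerase III factor TFIIIC, lies Rnu3a, a copy of the U3 small nucleolar RNA that guides ribosomal RNA cleavage. It had 22.4, 20.7, 18.7 and 22 CPM against 27.9, 24.7, 36.3 and 37.2 CPM after the fast, a log2 change of 0.59 ± 0.13 (SE; adjusted p = 0.0084, edgeR). Its groups did not overlap, and since 7SL and U3 have near-identical copies elsewhere in the genome, the assignment of their reads is uncertain.

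Beside Mup19 and Mup1, which encode major urinary proteins made in male mouse liver, lie the non-coding genes Gm13775 and Gm13773, which also lie within the repeated Mup cluster. The assignment of their reads, and of those of the pseudogene beside Mup2, is therefore uncertain too. The Mup19 partner had 1040, 1030, 766 and 981 CPM in ad libitum mice, 11500, 5510 and 16600 in fasted replicates 1 to 3 and 592 in fasted replicate 4. The Mup1 partner had 80.0, 98.9, 61.3 and 80.8 CPM, then 554, 334 and 647, and 49.5 in fasted replicate 4. Fasted replicate 4 lay below the ad libitum libraries in both, and neither passed over the 8 libraries (adjusted p = 0.066 and 0.085, edgeR), while both passed without it (log2 changes 3.54 and 2.66). With DESeq2 both passed over the 8 libraries (adjusted p = 4.3e-06 and 0.0066), and the Mup19 partner also passed with a filter of at least 1 CPM in 4 libraries (0.042). Without the 7SL copy, divergent transcripts took 0.224 to 0.268% of the reads in ad libitum libraries, 0.837 to 1.61% in fasted replicates 1 to 3 and 0.21% in fasted replicate 4. Without the Mup partners as well, the shares were 0.134 to 0.148% in ad libitum and 0.133 to 0.177% in fasted libraries, which overlap.

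The other high-level transcripts differed less between the groups. Gm11285 beside Vmn1r188, a vomeronasal receptor, had 58.1 ± 3.6 CPM in ad libitum and 51.9 ± 5.9 in fasted mice (SD, n = 4 each). Gm9320 beside Tgif1, a homeobox repressor, had 24.6 ± 1.82 and 21.9 ± 2.53 CPM. The RNA beside Nlrp6, an inflammasome sensor, had 4.31 ± 0.634 and 4.56 ± 1.27 CPM. These 3 pairs of groups overlapped and did not pass, while Hist1h2bm and Adgrf3, also among the 10 highest by RPKM, are described with the changes.

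**Figure D2:**
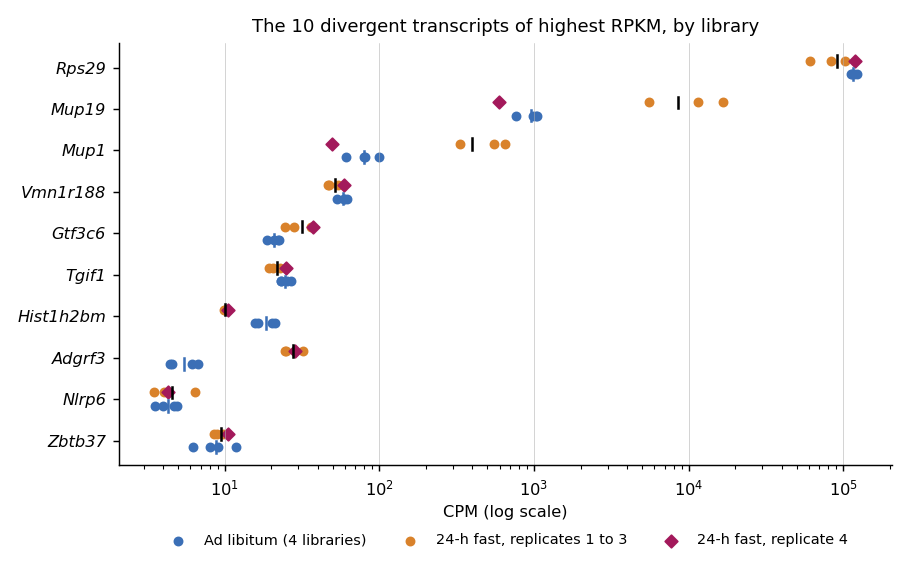
CPM per library on a log axis (x) for the 10 divergent transcripts of highest RPKM (y, labelled by coding gene and ordered by RPKM); points are libraries and short vertical lines are group means. The Mup19 and Mup1 partners are high in fasted replicates 1 to 3 only, and Adgrf3 and Hist1h2bm separate the groups with all 4 fasted libraries.

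Most divergent transcripts did not pass the test of fasted against ad libitum mice. Of the 1150 with enough reads to be tested, 82 rose and 45 fell at an adjusted p under 0.05 (edgeR), which is 7.13% and 3.91%. The background over all 40840 catalogue transcripts tested was 9.55% rising and 7.67% falling, so both shares were below it, the falling one more so. The read threshold of the divergent transcripts, met more easily in the deeper fasted libraries, was not applied to this background. Among the passing transcripts, 48 rose and 19 fell by at least 2-fold, and groups did not overlap for 68 of the 82 and 40 of the 45. These counts were not taken over all passing catalogue transcripts, and a low p in the same libraries already favours separate groups. Counted over all tested, whether passing or not, groups did not overlap with the fasted libraries higher in 120 (10.4%) and lower in 70 (6.09%), against 9.09% and 10.2% of all transcripts. With 1 transcript per promoter, 61 of 720 promoters (8.47%) had a rising and 26 (3.61%) a falling divergent transcript, and groups did not overlap at 87 (12.1%) with the fasted libraries higher and 45 (6.25%) with them lower.

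The median log2 change of the divergent transcripts was 0.13, against 0.013 for all transcripts. It was 0.20 for the 378 with a single exon, of which 38 rose and 11 fell, and 0.098 for the 772 with 2 or more exons, of which 44 rose and 34 fell. By distance, 22 of 339 tested transcripts rose and 10 fell within 100 bases, 30 and 21 of 453 beyond that and within 250 bases, 18 and 9 of 223 within 500 bases, and 12 and 5 of 135 farther away. By GENCODE class, 41 of 629 long non-coding transcripts rose and 21 fell, as did 37 and 20 of 479 without a GENCODE gene, and 3 and 4 of 39 pseudogenes. Transcripts of 1 promoter often overlap and share reads: in 137 of the 218 promoters with at least 2 tested (62.8%) all log2 changes had the same sign. Of 106 promoters with any passing transcript, 16 had at least 2 passing and 1 had them in both directions.

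Fasted replicate 4 alone, set against the ad libitum libraries, gave 31 rising (2.70%) and 6 falling (0.522%) divergent transcripts, with 2.06% and 1.23% as the background over all transcripts. The median log2 change there was 0.19, against -0.016 for all transcripts. Of the 82 rising transcripts, 81 were also higher in fasted replicate 4 by sign, and all 45 falling ones were also lower. Fasted replicate 4 was among the libraries behind these calls, so the agreement in sign is partly set by the choice and is no independent check. Without fasted replicate 4, 117 of 1185 rose (9.87%) and 64 fell (5.40%), against 16.2% and 10.2% of all transcripts. Single-exon transcripts at least 10 kb from any coding gene behaved otherwise by these counts: 12.7% rose and 5.41% fell over the 8 libraries, with 1.53% and 0.733% in fasted replicate 4, and their median log2 change was 0.095 over 8 libraries and -0.066 in fasted replicate 4. For spliced transcripts as far away, 10.6% rose and 9.29% fell over the 8 libraries, with 3.59% and 1.46% in fasted replicate 4. The differences between these sets were not tested.

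**Figure D3:**
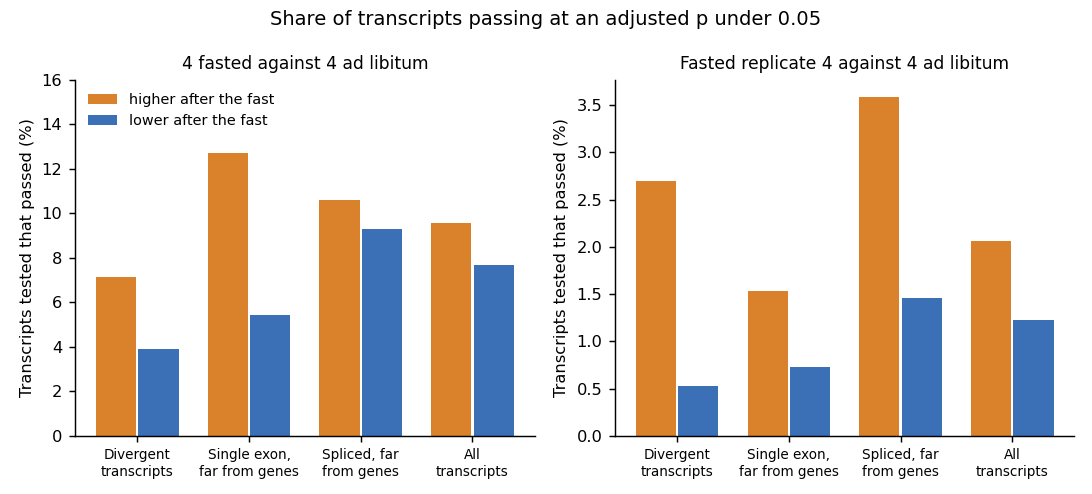
Percentage of tested transcripts passing at an adjusted p under 0.05 (y axis; orange higher, blue lower after the fast) for divergent transcripts, single-exon and spliced transcripts at least 10 kb from coding genes, and all transcripts (x axis), over 8 libraries (left) and for fasted replicate 4 against the 4 ad libitum libraries (right, on a smaller scale). Divergent transcripts have 7.13% higher and 3.91% lower on the left and 2.70% and 0.522% on the right.

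Among rises that reached 1 CPM in the fasted group and had groups that did not overlap, the RNA beside Txnip came first. Txnip encodes an arrestin-like inhibitor of thioredoxin and of glucose uptake, and its divergent RNA is Gm15441 (chr3:96555765-96557815, minus strand, 3 exons). Gm15441 had 0.314, 0.324, 0.197 and 0.287 CPM in ad libitum libraries and 12.5, 4.98, 5.99 and 15.2 CPM in fasted ones. All fasted libraries lay above all ad libitum ones, with a log2 change of 5.08 ± 0.49 (adjusted p = 0.0007, edgeR). The signal over coding exons means all reads of the catalogue transcripts that share exon bases with the gene. At Txnip it came from 1 catalogue transcript on the other strand. It had means of 56.3 ± 18.7 and 117 ± 18.3 CPM and so rose as well (log2 change 1.11 ± 0.22, adjusted p = 0.0058).

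Beside Adgrf3, an adhesion G protein-coupled receptor gene, a single-exon RNA without a GENCODE gene (chr5:30206665-30207341, plus strand) starts 943 bases away. It had 4.6, 6.11, 6.74 and 4.42 CPM in ad libitum and 24.4, 32.0, 24.8 and 28.7 CPM in fasted libraries, with a log2 change of 2.33 ± 0.15 and the lowest adjusted p of the named transcripts (6.4e-07, edgeR). The groups were far apart, and the change in fasted replicate 4 was as large (log2 change 2.40). Beside Mfsd2a, a transporter of lysophosphatidylcholine that carries omega-3 fatty acids and is known to be induced in fasted liver, 4933421A08Rik (chr4:122961310-122963476, plus strand) had 0.257, 0.468, 0.118 and 0.344 CPM and then 1.58, 1.09, 0.792 and 1.67 CPM. The groups did not overlap, and the log2 change was 2.10 ± 0.35 (adjusted p = 0.0012).

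The RNA beside Pfkfb2, which makes and degrades the glycolytic regulator fructose 2,6-bisphosphate, had 0.771, 0.971, 1.85 and 1.39 CPM in ad libitum and 3.72, 3.12, 4.41 and 3.77 CPM in fasted libraries. A catalogue transcript on the other strand overlaps this RNA, and counts are read as both strands together, so the reads cannot be credited to it alone. Gm47438 beside Atp5b, the β subunit of mitochondrial ATP synthase, had 0.543, 0.791, 0.552 and 0.574 CPM and then 1.42, 1.85, 1.52 and 1.45 CPM. No fasted library reached down to the ad libitum range in either, with log2 changes of 1.60 ± 0.23 and 1.35 ± 0.20. The signal over the coding exons also rose at both, by log2 changes of 0.41 ± 0.14 for Pfkfb2 (adjusted p = 0.047) and 0.63 ± 0.14 for Atp5b (adjusted p = 0.0063). Gm3807 beside Arhgdia, a GDP-dissociation inhibitor of small GTPases, had 1.51, 3.7, 1.7 and 2.97 CPM and then 8.28, 6.93, 7.03 and 8.16 CPM, again without overlap (log2 change 1.62 ± 0.26).

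The RNA beside Spen, an RNA-binding repressor that acts in X inactivation, had 0.371, 0.755, 0.394 and 0.402 CPM in ad libitum and 1.37, 1.07, 1.47 and 1.8 CPM in fasted libraries. Gm43672 beside Tbl1xr1, a subunit of the NCoR corepressor complex, had 3.49, 4.03, 5.52 and 4.36 CPM and then 9.22, 9.88, 10.1 and 12.4 CPM. Both sets of groups were separate, with log2 changes of 1.57 ± 0.26 and 1.26 ± 0.15. For 1010001N08Rik beside Gata6, a transcription factor of endoderm, the means were 0.482 ± 0.176 and 1.06 ± 0.226 CPM (log2 change 1.14 ± 0.28). For the RNA beside Ccne2, cyclin E2 of S-phase entry, the means were 0.909 ± 0.366 and 2.01 ± 0.318 CPM (log2 change 1.13 ± 0.24).

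Among falls that reached 1 CPM in the ad libitum group, the largest was beside Cyp26a1, the enzyme that hydroxylates and clears retinoic acid. Its divergent RNA (chr19:37693608-37697557, minus strand, 3 exons, 241 bases away) had 0.743, 2.59, 2.05 and 1.03 CPM in ad libitum libraries and 0.239, 0.208, 0.223 and 0.212 CPM in fasted ones. Ad libitum libraries varied widely and all lay above the fasted ones, which were close together (log2 change -2.84 ± 0.37, adjusted p = 0.0003, edgeR). Beside Egfr, the epidermal growth factor receptor, a single-exon RNA (chr11:16750152-16751808, minus strand) had 7.36, 10.5, 4.89 and 7.71 CPM and then 3.28, 3.28, 2.5 and 2.63 CPM. The groups were separate, with a log2 change of -1.38 ± 0.20 (adjusted p = 0.00084). The signal over Egfr exons, from 3 same-strand transcripts, had means of 562 ± 68.8 and 254 ± 67.5 CPM and fell as well (log2 change -1.09 ± 0.19, adjusted p = 0.0016).

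Other falls were smaller. 1110002L01Rik beside Asxl2, a Polycomb-associated chromatin protein, had 1.6, 1.4, 1.73 and 1.32 CPM in ad libitum and 0.677, 0.623, 0.619 and 0.848 CPM in fasted libraries. Gm10616 beside Polg, the catalytic subunit of the mitochondrial DNA polymerase, had 2.2, 2.91, 2.52 and 2.18 CPM and then 1.23, 1.36, 0.854 and 1.17 CPM. Each pair of groups was separate, with log2 changes of -1.13 ± 0.19 and -1.08 ± 0.18. The RNA beside Polr3k, a small subunit of RNA polymerase III, had 1.83, 3.31, 1.42 and 1.95 CPM and then 1.12, 1.23, 0.743 and 1.07 CPM (log2 change -1.02 ± 0.25). At Hist1h2bm, an H2B histone gene, the divergent RNA is Hist1h2aj, an H2A histone gene that GENCODE and RefSeq class as a pseudogene; it had 15.8, 16.4, 21.1 and 20.1 CPM and then 10.0, 9.94, 10.1 and 10.5 CPM (log2 change -0.86 ± 0.11, adjusted p = 0.00019). The fasted libraries lay close together there, all below the ad libitum ones, and histone genes have near-identical copies, so the assignment of reads is uncertain.

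The remaining falls were of similar size. They lay beside Lin7a, a scaffold of cell junctions (4.14 ± 0.76 and 2.29 ± 0.514 CPM), Mup2, a major urinary protein gene with the pseudogene Mup-ps2 beside it (4.24 ± 0.832 and 2.25 ± 0.373 CPM), Gnat1, the rod transducin α subunit (3.08 ± 0.429 and 1.72 ± 0.141 CPM), and Gtdc1, a putative glycosyltransferase (3.52 ± 1.05 and 1.65 ± 0.149 CPM). At Lin7a the signal over the coding exons fell too (log2 change -1.06 ± 0.09, adjusted p = 1e-05), but a transcript counted for the gene overlaps the divergent one. All 10 named rises and all 10 named falls had groups that did not overlap, which their choice required, and passed with each library left out in turn. In fasted replicate 4 alone, 7 of the 10 rises and 3 of the 10 falls passed.

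**Figure D4:**
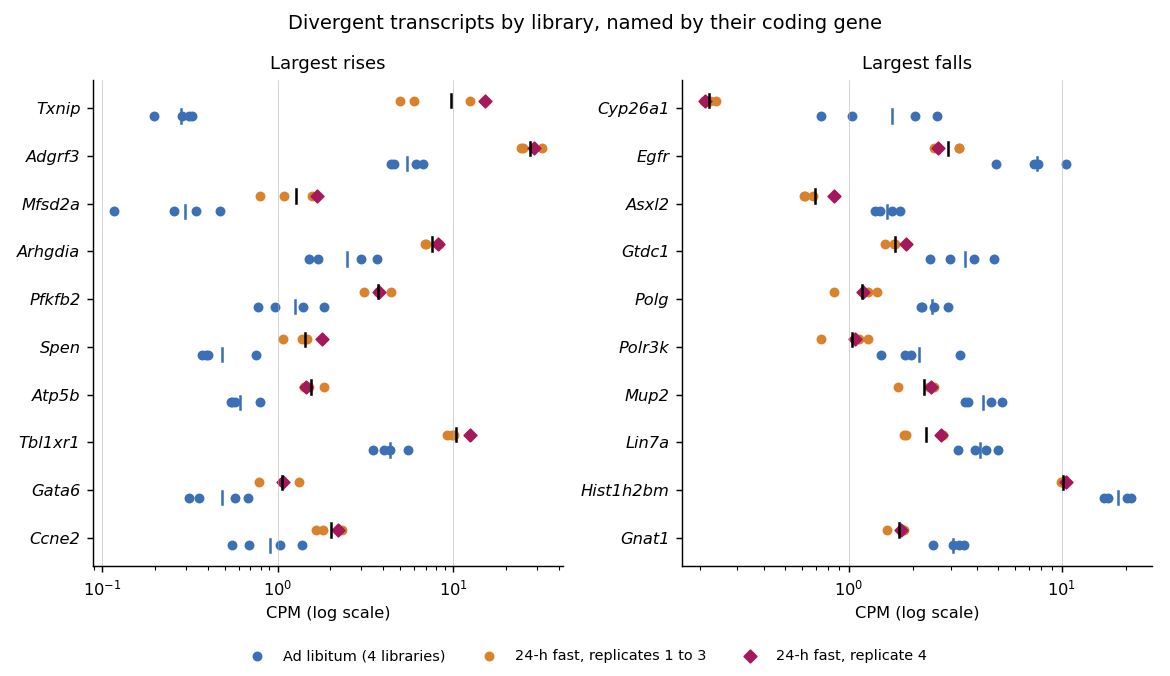
CPM per library on a log axis (x) for the 10 largest rises (left) and 10 largest falls (right) that reached 1 CPM in the higher group, labelled by coding gene (y); points are libraries, diamonds are fasted replicate 4 and short vertical lines are group means. Fasted replicate 4 lies on the same side of the ad libitum libraries as fasted replicates 1 to 3 for all 20, which the choice of transcripts required.

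A few passing rises rested on fasted replicates 1 to 3. With 1 transcript per promoter, fasted replicate 4 lay inside the ad libitum range for 6 of the 61 rises and 1 of the 26 falls. It lay below that range for 1 more rise, at Slc9c1. The clearest, picked after their values were seen, were beside Zfp707, Ces2c and Slc9c1, and each of these lost its call with any library other than fasted replicate 4 left out. The RNA beside Zfp707, a zinc-finger gene, had 9.19 to 13.5 CPM in ad libitum libraries, 41.7 to 48.1 in fasted replicates 1 to 3 and 12.3 in fasted replicate 4. Matr3-ps2, a pseudogene of the nuclear matrix protein gene Matr3 that lies beside the carboxylesterase gene Ces2c, had 1.26 to 1.8, then 9.42 to 11.3, and 1.55 CPM. Gm6903, a pseudogene beside Slc9c1, had 0.686 to 0.947, then 9.51 to 11.7, and 0.648 CPM. A pseudogene can share reads with its parent gene, and the part of this and of the odd-count share in these values was not tested.

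The question whether a divergent RNA moves with its coding gene could be addressed at 290 promoters, where catalogue transcripts lie over the coding exons without overlapping the divergent one. These catalogue entries are non-coding, and all reads of an entry were counted once it shared bases with a coding exon. The value, called the signal over the coding exons, can therefore include reads outside the exons and is not that of the full mRNA. The divergent RNA passed at 36 of these promoters and the coding gene at 98. Both passed at 13, where 8 rose together (among them Txnip, Pfkfb2 and Atp5b), 3 fell together (among them Egfr) and 2 moved in opposite directions. With 36 and 98 of 290 passing, some joint calls arise even if divergent RNA and coding gene are unrelated. Whether 13 exceeds that number was not tested, so the count does not show that they move together. For scale, 15.5% of the 6458 coding genes tested rose and 14.1% fell, and of the 471 of them with a divergent transcript 80 rose and 75 fell. Across the 290 pairs the log2 changes had a Pearson correlation of 0.18 and a Spearman correlation of 0.16, given as a description, since both values of a pair share their libraries. In fasted replicate 4, where 3.70% of all coding genes tested rose and 2.73% fell, 11 divergent RNAs and 14 coding genes of the 290 pairs passed, none of them at the same promoter, and these correlations were 0.26 and 0.23.

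Opposite directions were seen at Gtdc1 and Hectd2, and at neither when only transcripts on the strand of the coding gene were counted for it. At Gtdc1 the divergent RNA had 3.86, 2.41, 4.81 and 2.98 CPM in ad libitum and 1.48, 1.65, 1.63 and 1.85 CPM in fasted libraries, a fall without overlap (log2 change -1.09 ± 0.19, adjusted p = 0.0016, edgeR). The signal over Gtdc1 exons had means of 2.9 ± 0.355 and 4.28 ± 1.31 CPM and rose (log2 change 0.62 ± 0.21, adjusted p = 0.043), but was not higher in fasted replicate 4 (log2 change -0.14), and its only transcript lies on the other strand. At Hectd2, a ubiquitin ligase gene, the divergent RNA had 0.171, 0.0719, 0 and 0.115 CPM and then 0.494, 0.534, 0.421 and 0.0998 CPM, with fasted replicate 4 inside the ad libitum range (log2 change 2.04 ± 0.64, adjusted p = 0.046). This call was lost with any library other than fasted replicate 4 left out. The signal over Hectd2 exons had means of 36.8 ± 20.7 and 12.7 ± 4.67 CPM and fell (log2 change -1.46 ± 0.44, adjusted p = 0.048), with 1 of its 6 transcripts on the strand of the gene. At other promoters the divergent RNA changed and the coding gene did not pass: at Chd1, a chromatin remodeller, the divergent RNA rose (0.878 ± 0.192 to 1.5 ± 0.271 CPM, adjusted p = 0.024) while the coding signal had a log2 change of -0.07 ± 0.09.

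**Figure D5:**
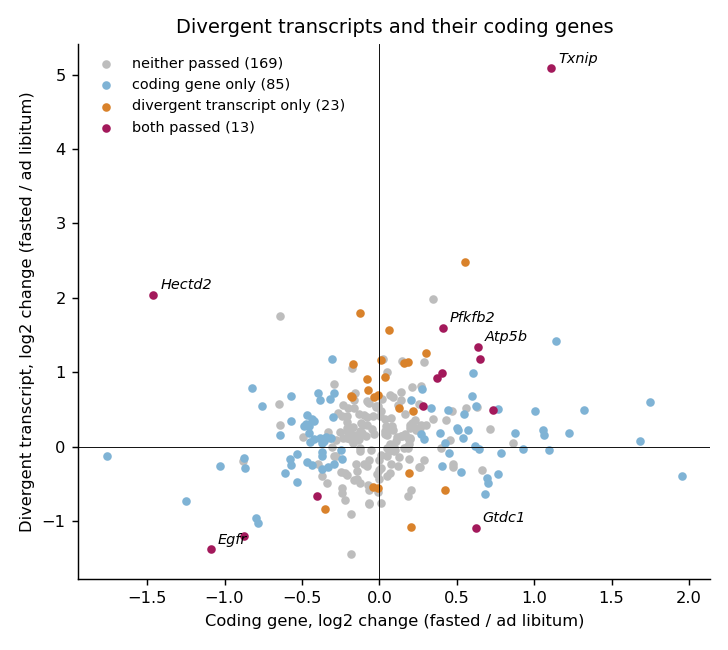
Log2 change of the divergent transcript (y axis) against that of its coding gene (x axis) for 290 promoters, coloured by which of them passed at an adjusted p under 0.05. Txnip stands at the top right, Egfr at the lower left, and Hectd2 and Gtdc1 in the quadrants of opposite sign; the Pearson correlation is 0.18.

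Over 14 lists of coding genes, 68 promoters had a divergent transcript and 62 were tested, of which 9 rose and 1 fell, with a median log2 change of 0.17. Over all promoters tested 8.47% rose and 3.61% fell, and the lists are too short for their counts to be read against these shares. Of 4 tested beside genes of glucose production and amino acid breakdown, 2 rose, both beside urea cycle genes. Gm36172 beside Arg1, arginase of the urea cycle, had 2.87, 4.46, 3.08 and 3.89 CPM in ad libitum and 4.52, 5.16, 5.72 and 7.03 CPM in fasted libraries. 1810012K16Rik beside Slc25a15, the mitochondrial ornithine carrier, had 0.457, 0.432, 0.355 and 0.258 CPM and then 0.781, 0.816, 0.965 and 1.1 CPM. The groups did not overlap in either, with log2 changes of 0.65 ± 0.16 (adjusted p = 0.016, edgeR) and 1.28 ± 0.26 (adjusted p = 0.0041); Arg1 lost its call without ad libitum replicate 1 or 3.

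The only one tested beside a gene of fatty acid oxidation was at Pex5, the import receptor of peroxisomal enzymes, with 2.8 ± 0.449 and 3.75 ± 0.389 CPM (adjusted p = 0.05037), which did not pass. None of 3 tested beside genes of sterol and fatty acid synthesis passed. The one at Elovl6, a fatty acid elongase, had 0.646 ± 0.384 and 0.449 ± 0.0964 CPM. None passed beside genes of autophagy and the lysosome (3 tested, with the largest change at Ulk2, log2 change -0.72 ± 0.44), the clock (1 tested, Clock, 0.24 ± 0.30) or ubiquitin and the proteasome (6 tested, with Psmd14 at 0.68 ± 0.24, which passed without fasted replicate 4).

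Of the rises named above, Txnip was the only one of 6 tested beside genes of oxidative and ER stress, Gata6 of 4 beside hepatocyte transcription factors, Ccne2 of 3 beside genes of the cell cycle and DNA repair, and Atp5b of 5 beside mitochondrial genes, where the median log2 change was 0.55. Of 11 tested beside genes of transcription and chromatin, 3 rose and 1 fell, with a median log2 change of 0.08. The rises were at Chd1, at Eed, a Polycomb subunit (E230029C05Rik, 0.128 ± 0.0498 to 0.427 ± 0.115 CPM, adjusted p = 0.0082), and at Ep300, a histone acetyltransferase (1110025M09Rik, 1.06 ± 0.0786 to 1.71 ± 0.261 CPM, adjusted p = 0.016, edgeR). Chd1 lost its call without ad libitum replicate 1, 3 or 4 or fasted replicate 3, and Ep300 without fasted replicate 3. The fall, picked after its values were seen, was at the methyltransferase-like gene Kmt2e, from 27.81 ± 1.954 to 21.71 ± 2.73 CPM (adjusted p = 0.0373, edgeR). It did not pass in fasted replicate 4 (log2 change -0.15) and lost its call when any 1 of 6 libraries was left out, that is any except ad libitum replicate 3 and fasted replicate 4. The signal over the exons of Ep300 did not pass (log2 change -0.19 ± 0.08). None of 8 beside genes of RNA splicing, decay and export passed, with the largest change at Rbm39 (0.63 ± 0.59), none of 6 beside genes of translation and ribosome assembly, with the largest at Ncl (0.40 ± 0.25), and not the 1 tested beside an interferon gene, Irf2 (-0.56 ± 0.20), which passed without fasted replicate 4 (log2 change -0.77).

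Of the named head-to-head long non-coding RNAs, Tug1, Gas5 and Snhg1 did not pass the test. Tug1 beside Morc2a, a chromatin ATPase gene, had 29.1, 32.9, 30.9 and 33.2 CPM in ad libitum and 28.9, 30.4, 31.0 and 36.6 CPM in fasted libraries. Gas5 beside Zbtb37, which hosts small nucleolar RNAs and is known to accumulate in starved cultured cells, had 7.99, 11.9, 6.23 and 9.07 CPM and then 8.48, 9.73, 8.96 and 10.5 CPM. Both sets of groups overlapped, with log2 changes of 0.01 ± 0.10 and 0.10 ± 0.16. Snhg1 beside Slc3a2, the heavy chain of amino acid transporters, had 4.37, 5.72, 3.47 and 4.25 CPM and then 6.02, 4.67, 6.41 and 7.23 CPM, which overlap (log2 change 0.45 ± 0.16, adjusted p = 0.071, edgeR).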

How the data were processed

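Liver RNA was sequenced in 8 libraries. Per the file headers, the deposited table gives raw read counts and RPKM per NONCODE transcript and library, and a CNCI coding score per transcript, made by the authors. The submitters' processing notes name bcl2fastq 2.17, BWA and mm10; the counting tool is not given in the sources used here, nor is its use of strand or its treatment of reads with several positions. Single-exon transcripts on opposite strands over nearly the same bases (24 pairs) had counts that differed by a median of 0.132 on the log2 scale, so counts are read as sense and antisense together. A catalogue transcript on the other strand overlapped 219 divergent transcripts (15.7%). Among the named ones these are beside Pfkfb2, Ccne2, Slc25a15, Ep300, Nlrp6 and Tgif1, and their reads cannot be credited to the divergent RNA alone. On the same strand, another catalogue transcript, divergent or not, overlapped 1052 of the 1395. Reads of these may be shared too, and named transcripts are not marked for it. The mitochondrial 16S transcript was left out of totals, since its cell is empty in ad libitum replicate 3.

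Counts were tested with edgeR 4.0.16 in R 4.3.3 (quasi-likelihood F, robust, two-sided, TMM, filterByExpr) over all transcripts, with Benjamini-Hochberg adjustment over the 40840 tested. CPM use TMM-scaled totals; errors are SD over 4 libraries, or SE of a log2 change. For fasted replicate 4 alone, the fit had a term for fasted replicates 1 to 3, and the lone library is assumed to vary like the others. Coding genes were given all reads of the catalogue transcripts with bases in their exons, on either strand. For a spliced transcript, an end base had to lie in an exon. Reads outside the exons can therefore be included. Of 875 promoters, 690 (78.9%) had a RefSeq sequence, under 80%, so no base composition is given from it; GENCODE transcripts served instead.

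Named are, with 1 transcript per promoter (the highest mean RPKM), the 10 largest passing rises and falls that reach 1 CPM in the higher group and have separate groups, the 10 highest by RPKM, up to 3 passing per list (or the largest change), known head-to-head RNAs (1 of which is not reported here), and pairs that passed in opposite directions. Members, lists and rules were chosen with earlier results of these data known. Alternatives were RLE scaling, no TMM, DESeq2 1.42.0, limma-voom (limma 3.58.1), 2 other filters, the replicate number, each library left out, and narrower definitions. The test was also run on simulated counts in which all fasted libraries followed the same pattern, unlike these data, so no conclusion is drawn. Replicates are biological replicates per the labels.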

Additional observations from a re-analysis of the deposited data

Results flagged for a closer look

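Of 92 groups of 4 libraries checked, 5 had a library far from the other 3 of its group (Dixon's criterion for 4 values), and chance alone flags about 1 in 20 groups. Fasted replicate 2 had 1.7 CPM of the transcript beside Mup2, below the other fasted libraries. Ad libitum replicate 2 stood above the other ad libitum libraries at Spen (0.755 CPM) and at Atp5b (0.791 CPM). Ad libitum replicate 3 stood below them at Chd1 (0.591 CPM) and in the share of reads in divergent transcripts (0.224%), which includes the Mup partners.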

How the results depend on the processing

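The main counts were 82 rising and 45 falling divergent transcripts and 87 promoters. With the term for fasted replicates 1 to 3 they were 31, 6 and 27. Without a low-count filter, 128 rose and 134 promoters passed; with at least 1 CPM in 4 libraries, 28 fell. With only transcripts of 2 or more exons, 44 rose and 43 promoters passed. With each library left out, rises ranged from 53 to 117, falls from 31 to 64 and promoters from 58 to 136, the highest of each without fasted replicate 4; leaving out ad libitum replicate 1 gave 53 rises, and leaving out fasted replicate 1 or fasted replicate 3 gave 54 each time. The replicate numbers did not pair the samples (correlations of same-numbered deviations -0.00113 to 0.0397), and with the replicate block the counts were 64, 37 and 72. RLE scaling, totals without TMM, DESeq2, limma-voom, a 500-base limit and leaving out transcripts with a catalogue transcript on the other strand kept each count within 1.5 times. The mean ad libitum share of reads was 0.256%, and 0.283% with totals that leave out all mitochondrial transcripts. With the term, the passing rise beside Slc9c1 changed sign (log2 change -0.32 in place of 3.3), as did the transcripts beside Mup19 and Mup1, which did not pass with edgeR (-0.69 and -0.70). Of the 45 named transcripts, 13 lost their call with the term for fasted replicates 1 to 3, where 1 library stands for the fast, and 5 gained one without fasted replicate 4 (beside Mup19, Mup1, Rps29, Irf2 and Psmd14). DESeq2 also called those beside Mup19 and Mup1. Snhg1 and the RNA beside Pex5 gained a call under both other filters and when ad libitum replicate 2 was left out. Snhg1 also gained a call without fasted replicate 2, and the RNA beside Pex5 without fasted replicate 3. At a median of 16 to 48 reads per transcript and library, small changes of low transcripts were not detectable, and 245 of 1395 could not be tested. Counts of 21 to 200 were mostly even numbers in all libraries, and the effect of this on the tests was not tested.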
